A study of Rattus norvegicus with 38 samples.

Results

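Solute carriers are membrane proteins that move sugars, amino acids, ions, metals, nucleosides and metabolites across the cell surface and across the membranes of mitochondria, lysosomes and the Golgi. They were followed here in blood leukocyte RNA of rats given acetaminophen or methyl parathion. The array held 181 probes with 1 annotated symbol that begins with Slc and a digit, or with Slco, and these stood for 179 genes among 26857 gene probes in all. A probe was kept when its signal-to-noise score was 3 or more in at least 3 of the 38 arrays. That left 117 probes of 116 genes, since Slc1a5 had 2 probes, out of 17819 gene probes on the array that met the same rule. Of the 117 probes, 37 were detected in all 38 arrays, 66 in at least 19 arrays and 24 in only 3 to 5 arrays. At the edge of the rule, 14 members were detected in exactly 3 arrays, and 19 solute carrier probes left out were detected in exactly 2. A further 21 of the probes left out were detected in 1 array and 24 in none.

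The study gave male CDF Fisher 344 rats of approximately 4 months a single intraperitoneal dose of acetaminophen (1200 mg/kg), an analgesic that is toxic to the liver in overdose, or of methyl parathion (15 mg/kg), an organophosphate insecticide whose oxidised form inhibits acetylcholinesterase. Both were suspended in vegetable oil. For each chemical, 4 rats were killed at 4 h, 4 at 12 h, 4 at 24 h and 3 at 168 h, and a vehicle group of 4 rats received the oil alone. All rats were killed by focused microwave irradiation of the head, blood was drawn from the heart, and leukocyte RNA with depleted globin mRNA was labelled for single-channel Applied Biosystems rat arrays. Every vehicle rat was killed at 24 h, so the hour of killing was matched at 24 h only, and at 168 h the chemical, the age of the rats and the days after injection cannot be told apart. Levels below are log2 normalised signals, on which a difference of 1 is a 2-fold change, and each level belongs to its own probe and is not set against another probe's. Changes are differences between group means with their standard error (SE), called when the limma test gave a Benjamini-Hochberg adjusted p under 0.05 over all 17810 gene probes tested.

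Carriers of the SLC families work in several ways. Facilitative carriers such as the glucose transporters let a solute run down its gradient, symporters and exchangers couple one solute to another or to sodium or protons, and mitochondrial carriers exchange metabolites between the matrix and the cytosol. Leukocytes depend on glucose uptake and lactate export when they run glycolysis, and on amino acid, zinc and iron carriers when they are activated.

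The arrays differed in brightness, with median raw signals between 176.56 and 389.56, and 36.4% to 51.7% of gene probes were detected per array. Rats of the same group correlated at r = 0.915 to 0.972 over gene probes. Between the vehicle groups of the 2 chemicals limma called none of the 117 members and 0.00% of all tested probes. An unadjusted p under 0.05 was reached there by 8 members and by 1541 of all 17810 tested probes. RNA of whole leukocyte samples cannot separate fewer cells of a type from less RNA per cell. After acetaminophen the mean level of 8 tested neutrophil marker genes, of 12 listed, lay between 13.20 and 13.55 in the vehicle rats, 15.87 and 16.18 at 12 h and 16.89 and 17.08 at 24 h, and all 8 genes were called higher at both times. The 8 tested T cell markers, of 14 listed, lay between 14.12 and 14.34 in the vehicle rats, 12.44 and 12.74 at 12 h and 12.42 and 13.10 at 24 h, and all 8 were called lower at both times. Natural killer markers (7 of 8 tested) lay between 15.08 and 15.30 in the vehicle rats and 13.31 and 14.18 at 24 h, when all 7 were called lower. At 12 h they lay between 14.8 and 15.2, overlapping the vehicle rats, with 1 called higher and 3 lower. Of the 3 tested B cell markers, of 9 listed, 2 were called lower at 12 h and 3 at 24 h, and of the 4 tested monocyte markers, of 7 listed, 2 were called higher at both times and 1 lower at 24 h. The 10 hepatocyte markers lay between 8.31 and 8.57 in the vehicle rats and 10.36 and 11.42 at 24 h, when 5 were called higher. Albumin (Alb) RNA was detected in none of the 4 vehicle rats and in all 4 rats at 24 h. These lists moved at 12 h, 24 h or both, when solute carriers described below also changed. The part of these lists in the members' changes was not tested.

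The members changed most at 12 and 24 h after acetaminophen. At 12 h, 17 of 117 members rose (14.5%) and 9 fell (7.69%), against 9.40% higher and 14.0% lower among all tested probes. At 24 h, 19 rose (16.2%) and 10 fell (8.55%), against 10.2% and 14.3%. Among probes with 1 annotated symbol, which is how members were named, 13.4% were higher and 16.8% lower at 12 h, and 15.1% and 16.7% at 24 h, so the members' share of rises was close to that background and their share of falls was below it. The median change of the members was 0.18 at 12 h and 0.18 at 24 h, against -0.02 and -0.04 over all tested probes. Both times shared 16 members that rose and 6 that fell, and they use the same vehicle rats. At 4 h, 5 members rose and none fell (1.88% higher and 1.99% lower among all tested probes), and at 168 h 2 rose and 2 fell (1.82% and 4.68%). Over both chemicals 40 members were called in at least 1 comparison of a treated group with its vehicle group, of which 34 were detected in at least 19 arrays, and 77 members were called in none. The matching number over all tested probes was not counted, so these 40 are a description only.

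The members were also counted by substrate class, assigned by family number, and no difference between classes was tested. At 24 h after acetaminophen the 11 tested carriers of the sugar families gave 4 rises and 2 falls, with a median change of 0.64, against 10.2% higher and 14.3% lower among all tested probes. Of the 11 mitochondrial carriers 1 rose and 4 fell, with a median of -0.33. At 12 h the sugar class gave 4 rises and 1 fall with a median of 0.49, and the mitochondrial class 1 rise and 5 falls with a median of 0.14. At 24 h the other classes gave 2 rises and no fall among 17 amino acid carriers and 1 rise and 1 fall among 7 carboxylate carriers. In the same 24 h rats there were 2 rises among 20 inorganic ion carriers, 2 among 8 metal carriers and 2 among 5 nucleoside carriers. Also at 24 h there were 2 rises among 12 carriers of neurotransmitters, taurine and vesicle solutes and 1 rise among 14 carriers of organic ions and bile acids. The 7 carriers of peptides, vitamins and lipids and the 4 nucleotide sugar carriers each gave 1 rise and 1 fall. The urea channel Slc14a1, alone in its class, fell at 24 h. The classes follow family numbers, so not every gene in a class carries the substrate of its name. The sugar class, for example, also holds Slc5a3, which carries myo-inositol, and Slc5a6, which carries vitamins.

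**Figure D1:**
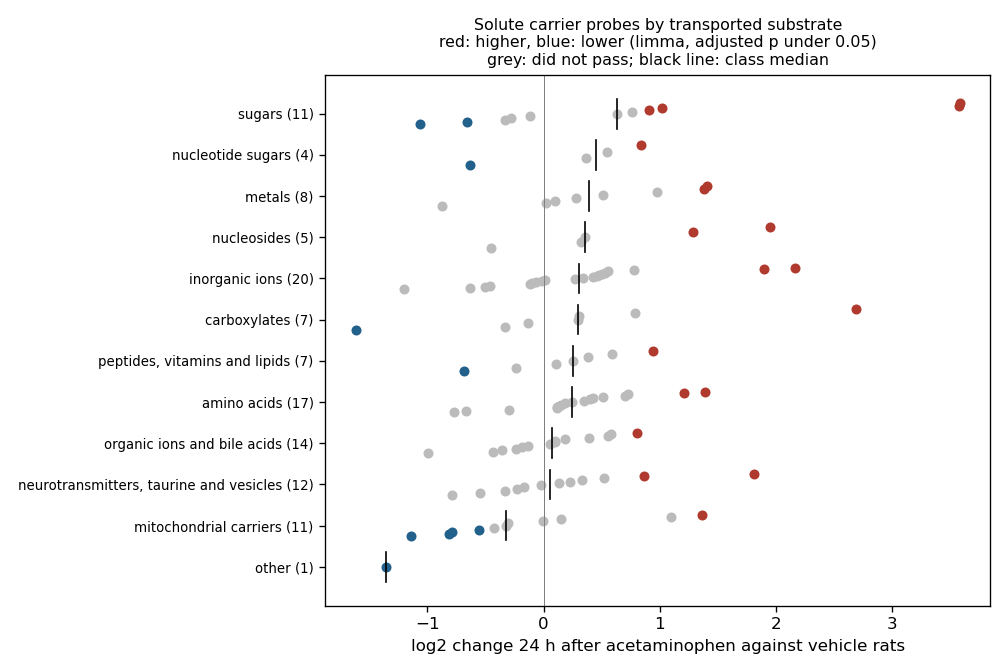
Log2 change 24 h after acetaminophen against the acetaminophen vehicle rats (horizontal axis) for each of the 117 solute carrier probes. Rows are substrate classes assigned by family number, with the number of probes. Red points rose and blue points fell in the limma test, grey points did not pass, and the black line is the class median. It runs from 0.64 for the 11 probes of the sugar families to -0.33 for the 11 mitochondrial carriers and -1.36 for the single probe of the class named other.

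For members called the same way at 12 and 24 h the 250 bases before the gene's start were read from RefSeq (build GRCr8), to show the sequence beside the members that moved together. Of 22 such members 20 had a window, 14 of them higher and 6 lower, and Slc2a3 and Slc15a3 had none. Searched on both strands were ACGTG, the core of the hypoxia response element, TGACNNNGC, the core of the antioxidant response element, and TGATGNAA, the amino acid response element, with none of the printed matches overlapping a match of another motif. ACGTG was in 4 of the 14 higher windows (Slc2a1, Slc28a2, Slc37a1, Slc12a9) and 2 of the 6 lower ones (Slc25a1, Slc5a6), and in 16.57% of 33469 RefSeq windows. TGACNNNGC was in 4 of the 14 (Slc6a6, Slc38a2, Slc29a3, Slc30a1) and 1 of the 6 (Slc25a25), and in 10.08% of all windows. TGATGNAA was in none of the 20 and in 3.403% of all windows. In Slc5a6 and Slc12a9 the ACGTG matches on the 2 strands overlap. A match is a run of letters and was not tested as a binding site. The windows of Slc2a1 (chr5:138002272-138002521, plus strand), Slc6a6 (chr4:125752252-125752501, plus), Slc38a2 (chr7:129742620-129742869, minus), Slc30a1 (chr13:106021769-106022018, plus) and Slc25a1 (chr11:96559804-96560053, plus) are shown as 4 members that rose and 1 that fell, each written 5′ to 3′ on the gene's strand with the match in capitals (ACGTG in Slc2a1 and Slc25a1, TGACNNNGC or its reverse complement in the others).
Slc2a1: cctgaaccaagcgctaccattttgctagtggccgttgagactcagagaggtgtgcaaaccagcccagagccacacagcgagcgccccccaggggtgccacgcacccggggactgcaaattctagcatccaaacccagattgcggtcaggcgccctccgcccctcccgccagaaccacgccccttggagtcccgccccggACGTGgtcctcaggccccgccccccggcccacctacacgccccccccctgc
Slc6a6: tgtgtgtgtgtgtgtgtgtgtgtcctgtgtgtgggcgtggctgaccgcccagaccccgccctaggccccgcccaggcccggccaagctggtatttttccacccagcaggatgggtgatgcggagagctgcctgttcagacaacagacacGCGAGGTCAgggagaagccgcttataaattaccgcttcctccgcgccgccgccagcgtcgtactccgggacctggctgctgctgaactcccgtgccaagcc
Slc38a2: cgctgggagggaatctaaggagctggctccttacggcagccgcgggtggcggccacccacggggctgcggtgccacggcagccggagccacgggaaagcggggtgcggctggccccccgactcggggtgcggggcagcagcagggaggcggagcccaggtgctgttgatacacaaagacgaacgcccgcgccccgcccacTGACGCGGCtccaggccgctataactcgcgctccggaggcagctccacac
Slc30a1: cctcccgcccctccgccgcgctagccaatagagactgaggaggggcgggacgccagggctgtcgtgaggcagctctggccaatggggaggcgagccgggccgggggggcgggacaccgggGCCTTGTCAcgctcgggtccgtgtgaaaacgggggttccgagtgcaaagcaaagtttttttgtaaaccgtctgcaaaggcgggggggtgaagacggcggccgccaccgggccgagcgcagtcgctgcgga
Slc25a1: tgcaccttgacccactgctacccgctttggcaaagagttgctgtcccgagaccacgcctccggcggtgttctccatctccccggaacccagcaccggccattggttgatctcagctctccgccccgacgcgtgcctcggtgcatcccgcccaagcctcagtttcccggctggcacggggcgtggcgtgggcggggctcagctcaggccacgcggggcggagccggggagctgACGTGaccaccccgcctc

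Genes of glucose and lactate carriers, Slc2a3, Slc2a1 and Slc16a3, rose at 12 and 24 h after acetaminophen. Slc2a3 encodes GLUT3, a glucose transporter with high affinity. Its log2 signal was 7.57, 6.56, 9.0 and 6.63 in the 4 acetaminophen vehicle rats, 9.86, 9.09, 9.67 and 10.67 at 12 h and 11.37, 11.36, 10.72 and 10.62 at 24 h. Every rat at 12 and 24 h lay above every vehicle rat. The probe was detected in 1 of 4 vehicle rats, none of 4 rats at 4 h, 3 of 4 at 12 h and 4 of 4 at 24 h. Slc2a3 rose by 2.38 ± 0.51 (SE) at 12 h (limma, adjusted p = 0.000402) and by 3.58 ± 0.51 at 24 h, 12.0-fold (adjusted p = 7.34e-07), and at 168 h its level of 8.09 ± 0.51 (SD, n = 3) was no longer called. Slc2a1, the GLUT1 transporter found in most cells, was detected in all arrays and read 14.77, 14.17, 14.44 and 14.70 in the vehicle rats and 15.72, 15.45, 15.54 and 15.44 at 24 h. It rose by 0.57 ± 0.15 at 12 h and 1.02 ± 0.15 at 24 h, 2.03-fold (limma adjusted p = 1.12e-06), with no overlap between the groups at either time.

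Slc16a3 encodes MCT4, which exports lactate. Its signals were 11.21, 11.05, 11.36 and 11.47 in the vehicle rats, 13.50, 13.46, 13.77 and 13.82 at 12 h and 14.11, 13.90, 13.64 and 14.21 at 24 h, so the groups stood well apart. The rise was 2.36 ± 0.21 at 12 h (limma adjusted p = 8.01e-11) and 2.69 ± 0.21 at 24 h, 6.46-fold (adjusted p = 1.52e-12). Of its relatives, Slc16a1, the lactate and pyruvate carrier MCT1, changed by 0.43 at 12 h (95% interval -0.01 to 0.87) and 0.30 at 24 h (-0.14 to 0.74) and was called at no time after either chemical. Slc16a7, the MCT2 gene, fell by 1.62 at 24 h (adjusted p = 0.0287), from 9.26, 8.17, 8.89 and 8.49 in the vehicle rats to 7.85, 7.07, 7.0 and 6.40. It was detected in 3 of 4 vehicle rats and 1 of 4 rats at 24 h, and its call was lost when vehicle rat 1 (change -1.43) or 3 (-1.56), or 24 h rat 2 (-1.61), 3 (-1.59) or 4 (-1.39), was left out.

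Other members of the sugar families moved less. Slc37a1, an endoplasmic reticulum carrier of glucose 6-phosphate, rose by 0.49 at 12 h and 0.90 ± 0.16 at 24 h, from 11.18 ± 0.19 (SD, n = 4) in the vehicle rats to 12.09 ± 0.17. Its 12 h call was lost without vehicle rat 2 (0.40), 12 h rat 2 (0.43) or 12 h rat 3 (0.48). Slc2a8, which encodes the intracellular GLUT8, fell by 0.66 at 24 h with overlapping groups. That call was lost in 6 of 8 omissions of a single rat (vehicle rat 1, 3 or 4, or 24 h rat 1, 2 or 4), over which the change ran from -0.82 to -0.57. It was also lost with median centring (-0.73). Slc2a4, the insulin-responsive GLUT4, was called at 4 h only, where it rose by 1.57 ± 0.41, and it was picked out here after its values were seen. It read 10.13, 9.39, 11.02 and 10.73 in the vehicle rats and 10.29, 12.30, 12.70 and 12.27 at 4 h, so 3 of the 4 treated rats lay above all vehicle rats. That call was lost without vehicle rat 1 (1.51) or 2 (1.26) or without 4 h rat 2 (1.43), 3 (1.30) or 4 (1.44).

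Among carriers of osmolytes and ions, Slc5a3, Slc6a6, Slc12a2 and Slc12a9 rose at 12 and 24 h after acetaminophen. The last 2 were the only ones of 20 inorganic ion carriers to do so. That share was close to the 9.40% and 10.2% of all tested probes called higher at 12 and 24 h. Slc12a3, Slc12a4 and Slc12a5 of the same family changed by -0.51, -0.11 and -0.64 at 24 h without passing. Slc5a3 encodes SMIT1, the sodium-coupled importer of the osmolyte myo-inositol. It read 8.82, 8.95, 8.78 and 7.47 in the vehicle rats, 11.54, 11.34, 10.98 and 11.85 at 12 h and 12.42, 12.66, 11.84 and 11.38 at 24 h. It rose by 2.93 ± 0.50 and 3.57 ± 0.50, 11.9-fold at 24 h (limma adjusted p = 5.83e-07), and no treated rat at these times came near the vehicle range. Slc6a6, the taurine transporter TauT, rose by 2.08 ± 0.39 at 12 h and 1.81 ± 0.39 at 24 h, from 10.63, 10.16, 10.94 and 9.91 in the vehicle rats to 12.59, 12.78, 12.61 and 12.01 and then 12.11, 11.74, 12.41 and 12.61. Slc12a2, the sodium, potassium and chloride cotransporter NKCC1, which loads cells with chloride, read 11.98, 11.02, 11.60 and 11.54 in the vehicle rats and 13.81, 13.70, 13.59 and 13.71 at 24 h. It rose by 2.02 ± 0.29 and 2.16 ± 0.29, 4.06-fold and 4.48-fold, with no overlap between groups at either time. Slc12a9, a less studied relative of the same family, rose by 1.34 at 12 h and 1.90 ± 0.43 at 24 h from a vehicle level detected in 1 of 4 rats, and its 12 h call was lost without vehicle rat 2 (1.21), 12 h rat 3 (1.24) or 12 h rat 4 (1.22). At 168 h none of these 4 members was called, with changes between -0.79 and 0.33.

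**Figure D2:**
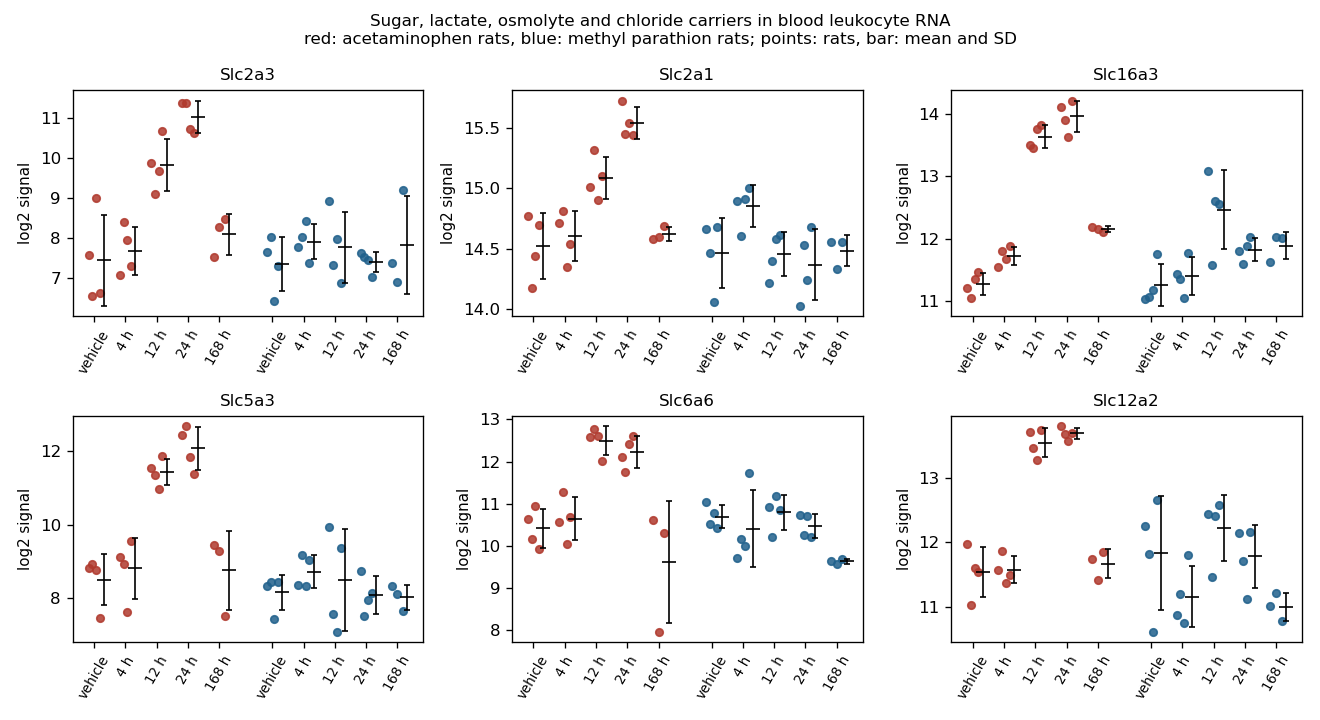
Log2 normalised signal (vertical axes, 1 scale per probe) of Slc2a3, Slc2a1, Slc16a3, Slc5a3, Slc6a6 and Slc12a2 in each rat, by group, with acetaminophen rats in red and methyl parathion rats in blue. Each point is 1 rat and the bars are the mean and SD of 3 or 4 rats. In all 6 panels the 12 h and 24 h acetaminophen rats lie above all 4 acetaminophen vehicle rats.

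By the likeness rule, the 5 members whose 10 group means followed those of Slc2a3 most closely were Slc5a3 (Pearson r = 0.975), Slc2a1 (0.954), Slc12a9 (0.950), Slc25a29 (0.938) and Slc16a3 (0.931). The points share arrays, normalization and vehicle groups, and the values are a description only.

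Among amino acid carriers Slc38a2 rose at 3 of the 4 times after acetaminophen. It encodes SNAT2, which imports small neutral amino acids with sodium. Its signals were 14.00, 13.42, 14.01 and 13.73 in the vehicle rats, 14.20, 14.62, 14.60 and 14.38 at 4 h and 15.27, 15.41, 15.31 and 15.37 at 12 h, with no overlap. The rise was 0.66 ± 0.17 at 4 h (limma adjusted p = 0.0241), 1.55 ± 0.17 at 12 h, 2.93-fold (1.17e-08), and 1.21 ± 0.17 at 24 h. The 12 and 24 h calls held in every omission of a single rat. The 4 h call was lost without vehicle rat 2 (0.53) or 4 (0.64) or without 4 h rat 2 (0.60), 3 (0.61) or 4 (0.68).

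The 2 probes of Slc1a5, the glutamine carrier ASCT2, were called in opposite directions at different times. Probe 21849990 fell by 0.85 ± 0.15 at 12 h (limma adjusted p = 3.78e-05), from 13.08, 12.71, 13.05 and 12.93 in the vehicle rats to 12.06, 12.06, 12.31 and 11.92, while the other probe changed by 0.79 there without passing. Probe 22403212 rose by 1.27 ± 0.37 at 4 h and by 1.39 ± 0.37 at 24 h, from 11.55, 11.84, 12.01 and 10.90 in the vehicle rats to 12.38, 12.85, 13.57 and 12.58 and then 13.39, 13.26, 12.57 and 12.62. The 4 h call was lost in 6 of 8 omissions of a single rat (vehicle rat 1, 2 or 4, or 4 h rat 2, 3 or 4), over which the change ran from 1.03 to 1.43. No direction is therefore given for the gene. Slc7a5, the light chain of the LAT1 carrier of large neutral amino acids, read 11.63, 11.84, 12.11 and 11.35 in the vehicle rats and 12.74, 12.72 and 13.22 at 168 h. It rose by 1.16 ± 0.27 at that time, 2.24-fold (limma adjusted p = 0.00748), and by 0.72 at 4 h without passing (adjusted p = 0.0924). Its heavy chain partner Slc3a2 was called at no time after either chemical, with changes between -0.47 and 0.46. Slc7a1, the CAT1 carrier of arginine and lysine, was detected in 3 of 4 vehicle rats and in none of 4 at 12 h. Its measured signal was 2.95-fold lower there (means 8.69 and 7.13, limma adjusted p = 0.0263). That call was lost without vehicle rat 1 (-1.22) or 3 (-1.40) or without 12 h rat 4 (-1.38), and at 24 h Slc7a1 was back at 8.84 ± 0.38 (SD, n = 4).

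Of the 5 tested nucleoside carriers 1 rose at 4 h after acetaminophen, 2 at 12 h and 2 at 24 h. Among all tested probes 1.88%, 9.40% and 10.2% were higher at these times, and the class was not tested against them. Slc28a2 encodes CNT2, a sodium-coupled importer of purine nucleosides. It read 12.04, 11.62, 12.00 and 12.19 in the vehicle rats, 12.51, 14.10, 13.81 and 13.73 at 4 h and 14.00, 14.04, 14.05 and 14.21 at 12 h. It rose by 1.57 ± 0.28 at 4 h (limma adjusted p = 0.00122), 2.11 ± 0.28 at 12 h and 1.95 ± 0.28 at 24 h, and was back at 11.96 ± 0.16 (SD, n = 3) at 168 h. Its 4 h call held in every omission of a single rat. Slc29a3, a nucleoside carrier of lysosomes, rose by 1.35 ± 0.44 at 12 h and 1.29 ± 0.44 at 24 h with vehicle rat 2, at 10.66, inside the treated range. Those calls were lost without vehicle rat 1 (1.28 and 1.22) or 4 (1.09 and 1.03), and at 24 h also without vehicle rat 3 (1.23) or 24 h rat 2 (1.14). Slc29a1, the ENT1 carrier, was detected in 1 of 4 acetaminophen vehicle rats and was called at no time.

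Of the 8 tested metal carriers 2 rose at 12 h and 2 at 24 h after acetaminophen, the zinc exporter gene Slc30a1 and the iron exporter gene Slc40a1. Among all tested probes 9.40% and 10.2% were higher at these times, and so small a class was not tested against them. Slc30a2 and Slc30a4 of the zinc exporter family changed by 0.02 and 0.98 at 24 h without passing. Slc30a1, the zinc exporter ZnT1, gave 11.34, 11.20, 11.35 and 11.40 in the vehicle rats, 11.73, 11.91, 12.13 and 11.86 at 12 h and 12.80, 12.61, 12.61 and 12.78 at 24 h. It rose by 0.59 ± 0.15 at 12 h and 1.38 ± 0.15 at 24 h, 2.60-fold (limma adjusted p = 5.5e-09), and each time the groups were separate. With median centring the 12 h change was 0.52 and did not pass. Slc40a1 encodes ferroportin, the iron exporter, and rose by 1.41 ± 0.33 at 4 h, 1.62 ± 0.33 at 12 h and 1.40 ± 0.33 at 24 h. Its vehicle values of 12.54, 11.81, 13.12 and 11.57 overlapped those at 4 h (12.58, 14.25, 14.42 and 13.45) and lay below those at 12 h (14.06, 14.17, 13.69 and 13.60). The 4 h call was lost without vehicle rat 4 (1.19) or without 4 h rat 2 (1.22) or 3 (1.17). Slc11a2, the DMT1 importer of iron, and Slc39a8, the ZIP8 importer of zinc, were not called after either chemical. Slc11a2 changed by -0.88 at 24 h after acetaminophen (limma adjusted p = 0.0915) and Slc39a8 by 0.28. Slc11a1, Slc25a37 and Slc39a14 were listed for naming with no kept member probe and were not analysed here, and the same holds for Slc7a11.

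The 4 h changes rested on few rats. At that time rat 1 was the lowest of the 4 treated rats in all 5 members called, Slc28a2, Slc40a1, Slc2a4, Slc38a2 and Slc1a5 probe 22403212. In both Slc40a1 and Slc2a4 it lay inside the vehicle range. Leaving it out gave 9 members called in place of 5, while leaving out rat 2, 3 or 4 gave 1, 1 and 2, and leaving out vehicle rat 1, 2 or 4 gave 3, 2 and 2. Fitting only the 8 arrays compared gave none, and median centring gave 1, Slc28a2. At 4 h the 3 tested platelet markers, of 8 listed, lay between 10.90 and 12.94 against 9.40 and 11.64 in the vehicle rats, with 2 called higher, and the 3 tested B cell markers were all called lower. Of the 8 tested T cell markers 5 were called lower at 4 h. Called higher were 1 of 8 neutrophil, 1 of 4 monocyte and 1 of 4 tested erythroid markers, the last of 10 listed. The part of these cell types in the 4 h changes was not tested.

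Mitochondrial carriers made up 5 of the 9 members that fell at 12 h and 4 of the 10 that fell at 24 h after acetaminophen. The class holds 11 tested members, and 14.0% and 14.3% of all tested probes were lower at these times. Slc25a5, the ADP/ATP exchanger ANT2, read 17.79, 17.50, 17.77 and 17.64 in the vehicle rats, 16.88, 17.01, 16.85 and 16.77 at 12 h and 16.91, 16.87, 16.98 and 16.68 at 24 h, with no overlap. It fell by 0.80 ± 0.16 and 0.81 ± 0.16 (limma adjusted p = 0.000219 and 0.000147). Its relative Slc25a4 (ANT1) fell by 0.69 ± 0.17 at 12 h and changed by -0.43 at 24 h without passing (adjusted p = 0.0551), and the phosphate carrier Slc25a3 fell by 0.60 ± 0.14 and 0.56 ± 0.14. Slc25a1, which exports citrate for lipid synthesis, read 11.69, 11.63, 11.56 and 11.55 in the vehicle rats and 10.30, 10.59, 10.83 and 10.13 at 24 h. It was detected in 2 of 4 rats at 24 h. It fell by 0.95 ± 0.22 at 12 h and 1.14 ± 0.22 at 24 h, 2.21-fold lower (adjusted p = 7.49e-05). Slc25a25, a calcium-regulated exchanger of ATP-Mg and phosphate, fell by 0.87 ± 0.18 and 0.79 ± 0.18. The median change of the 11 members was 0.14 at 12 h and -0.33 at 24 h. Slc25a29, a carrier of basic amino acids, was the only one of them called higher. It rose by 1.07 ± 0.24 at 12 h and 1.36 ± 0.24 at 24 h, from 10.54, 10.32, 10.74 and 10.42 in the vehicle rats to 12.46, 12.23, 11.11 and 11.67. The falls depended on the scaling of the arrays. With each array centred on its median in place of the deposited normalization, Slc25a5 changed by -0.50 and -0.41, Slc25a3 by -0.31 and -0.18 and Slc25a4 at 12 h by -0.57, and none of these passed, while Slc25a1, Slc25a25 and Slc25a29 kept their calls at both times.

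**Figure D3:**
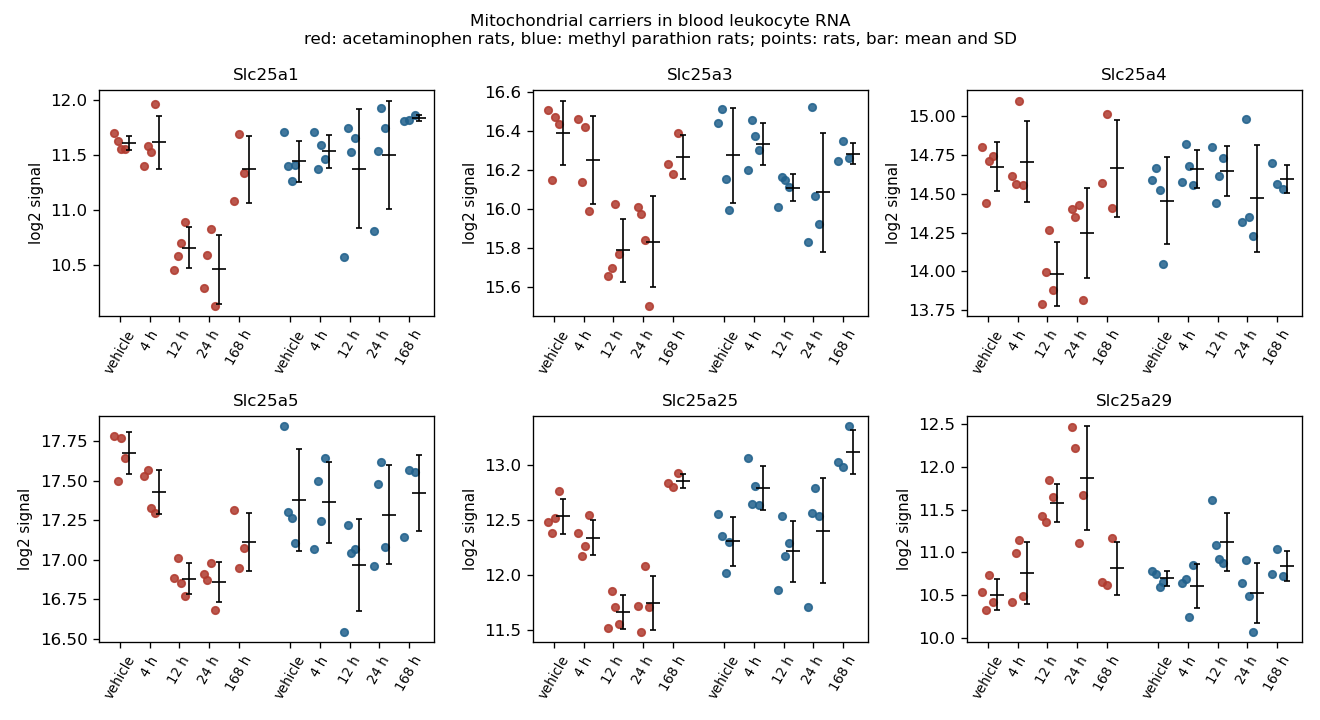
Log2 normalised signal (vertical axes, 1 scale per probe) of the mitochondrial carriers Slc25a1, Slc25a3, Slc25a4, Slc25a5, Slc25a25 and Slc25a29 in each rat, by group, with acetaminophen rats in red and methyl parathion rats in blue. Points are rats and bars the mean and SD. At 12 h after acetaminophen all 4 rats lie below the 4 acetaminophen vehicle rats in the first 5 panels and above them for Slc25a29.

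Among the remaining members, Slc5a6, the sodium-coupled importer of biotin and pantothenate, fell by 1.11 ± 0.20 at 12 h and 1.06 ± 0.20 at 24 h (limma adjusted p = 7.22e-05), from 11.07, 10.86, 11.35 and 11.45 in the vehicle rats to 10.09, 9.91, 10.13 and 10.16 and then 10.22, 10.28, 10.60 and 9.39. Slc15a3, a lysosomal carrier of histidine and peptides, rose by 0.55 and 0.94 ± 0.15, and Slc10a4, a vesicle protein of the bile acid carrier family, rose by 0.89 and 0.80. Slc35a4, of the nucleotide sugar family, fell by 0.58 and 0.63 and did not pass with median centring (-0.43 and -0.42), and neither did Slc10a4 at 12 or 24 h (0.85 and 0.77), Slc15a3 at 12 h (0.56) or Slc37a1 at 12 h (0.41). Slc27a1, a fatty acid importer, fell by 0.68 at 24 h with overlapping groups. Its call was lost without vehicle rat 3 (-0.58) or 4 (-0.58) and with median centring (-0.76). Slc32a1, the vesicular carrier of GABA and glycine, rose by 0.86 at 24 h, a call lost without vehicle rat 1 (0.66). Slc35b1 rose by 0.83 at 24 h, a call lost without vehicle rat 1 (0.72), 3 (0.79) or 4 (0.72) or 24 h rat 2 (0.77). Slc14a1, the urea channel of red cells and kidney, was detected in 2 of 4 vehicle rats and in none at 24 h. Its measured signal was 2.56-fold lower there (means 8.43 and 7.07, limma adjusted p = 0.0383). That call was lost in every omission of a single rat except that of vehicle rat 3, with changes from -1.71 to -1.07. The erythrocyte anion exchanger Slc4a1 was not called and changed by 0.48 at 24 h (95% interval -0.92 to 1.87), and neither was Slc10a1, the bile acid importer of hepatocytes, with 0.05 (-0.81 to 0.92) and detection in 1 of 4 rats at 24 h. The carnitine carrier Slc22a5 was not called either, with -0.35 at 24 h.

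At 168 h after acetaminophen 4 members were called. Besides Slc7a5, Slc16a3 rose by 0.88 ± 0.22 against the vehicle rats, with 12.19, 12.15 and 12.10, a call lost without 168 h rat 2 (0.88). With median centring the changes of Slc7a5 and Slc16a3 at 168 h were 0.73 and 0.40, and neither passed. Slc25a5 fell by 0.56 at 168 h, a call lost in 5 of 7 omissions of a single rat (vehicle rat 1, 3 or 4, or 168 h rat 2 or 3), over which the change ran from -0.66 to -0.48. Slc18a2, the vesicular monoamine carrier VMAT2, which platelets use for serotonin, was detected in 3 of 4 vehicle rats and none of 3 at 168 h. Its measured signal was 3.83-fold lower there (means 9.02 and 7.09, limma adjusted p = 0.0237). The call was lost without vehicle rat 2 (-1.62) or 168 h rat 1 (-1.75) or 2 (-1.94). Leaving out 168 h rat 2 left 1 member called of the 4.

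**Figure D4:**
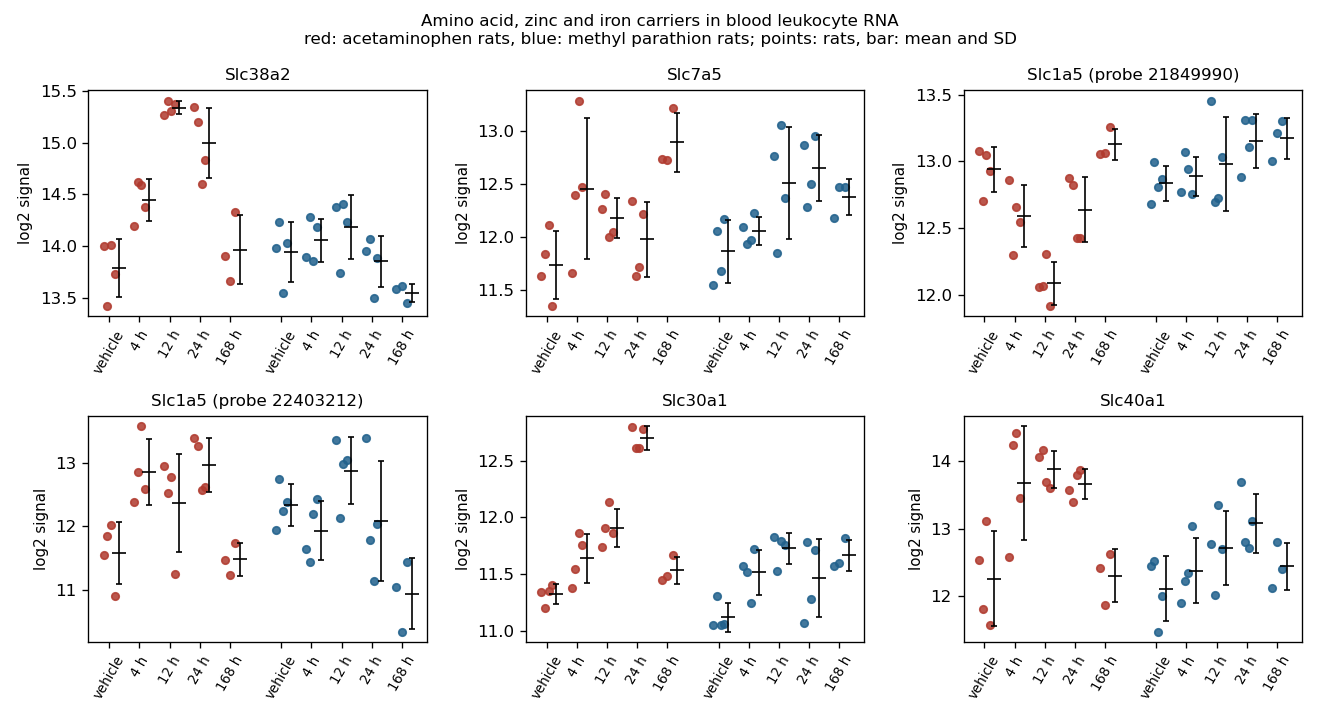
Log2 normalised signal (vertical axes, 1 scale per probe) of Slc38a2, Slc7a5, the 2 probes of Slc1a5, Slc30a1 and Slc40a1 in each rat, by group, with acetaminophen rats in red and methyl parathion rats in blue. Points are rats and bars the mean and SD. Slc38a2 and Slc30a1 rise after acetaminophen to 15.34 at 12 h and 12.70 at 24 h, and at 12 h the Slc1a5 probe 21849990 lies below its vehicle rats while probe 22403212 does not.

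After methyl parathion few members were called before 168 h. At 4 h limma called none, and 0.00% of all tested probes. An unadjusted p under 0.05 was reached by 10 of the 117 members and by 1546 of all 17810 tested probes. At 12 h 3 rose and none fell (1.85% higher and 2.73% lower among all tested probes), and at 24 h 1 rose (0.337%). Slc16a3 rose by 1.20 ± 0.21 at 12 h (limma adjusted p = 0.00174), with 13.09, 11.58, 12.61 and 12.56 against 11.03, 11.06, 11.18 and 11.76 in the methyl parathion vehicle rats, where treated rat 2 lay below vehicle rat 4. Slc30a1 rose by 0.61 ± 0.15 at 12 h, from 11.04, 11.31, 11.05 and 11.06 to 11.82, 11.53, 11.79 and 11.76. Its call was lost without vehicle rat 1 (0.58) or 12 h rat 1 (0.58), 3 (0.59) or 4 (0.60). With median centring the 12 h changes of Slc16a3 and Slc30a1 were 0.91 and 0.32, and neither passed, nor did either when only the arrays compared were fitted. In the same 12 h rats the neutrophil markers lay between 13.36 and 15.13 against 13.16 and 14.02 in the vehicle rats, with 2 of 8 called higher, and 7 of 8 T cell markers were called lower. Their part in the 3 rises was not tested.

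Slc35e4, a relative of the nucleotide sugar carriers whose substrate is not settled, was the only member called at 12, 24 and 168 h after methyl parathion. It read 11.46, 11.47, 10.77 and 11.35 in the vehicle rats and 12.50, 12.65 and 12.46 at 168 h, and every treated rat at these 3 times lay above every vehicle rat. The rises were 0.95 ± 0.21, 0.94 ± 0.21 and 1.27 ± 0.23, 2.42-fold at 168 h (limma adjusted p = 0.000519). The 12 h call was lost without 12 h rat 4 (0.78), and the 24 h call without vehicle rat 1 (1.01), 2 (1.01) or 3 (0.78) or 24 h rat 3 (0.92) or 4 (0.80). With median centring the 12 and 24 h changes were 0.65 and 0.61 and did not pass. The gene also rose by 0.63 at 12 h after acetaminophen with overlapping groups. This call was lost without vehicle rat 1 (0.61) or 2 (0.50) or 12 h rat 1 (0.56) or 2 (0.59), and with median centring (0.59).

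At 168 h after methyl parathion 5 members rose and 7 fell, against 5.74% and 5.56% of all tested probes. Slc2a8 rose by 1.08 ± 0.24, from 10.59, 10.60, 10.49 and 10.24 to 11.51, 11.55 and 11.63 (limma adjusted p = 0.00309). Slc25a25 rose by 0.81 ± 0.19 and Slc15a3 by 0.66 ± 0.17. Slc15a3 lost its call without 168 h rat 3 (0.52), and Slc30a1, which rose by 0.55, lost it in 5 of 7 omissions of a single rat (vehicle rat 1, 3 or 4, or 168 h rat 2 or 3), over which the change ran from 0.47 to 0.61. With median centring only Slc35e4 of these 5 rises passed. Slc38a3, the SNAT3 glutamine carrier, was detected in 3 of 4 vehicle rats and none of 3 at 168 h. Its measured signal was 4.73-fold lower there (means 9.46 and 7.22, limma adjusted p = 0.00792). Slc20a2, a phosphate importer, was detected in 2 of 4 vehicle rats and none at 168 h. Its measured signal was about 2.39-fold lower there (means 8.08 and 6.83, limma adjusted p = 0.0399). That call was lost without vehicle rat 1 (-1.15), 2 (-1.14) or 4 (-1.31) or 168 h rat 1 (-1.13) or 3 (-1.16). It was lost in 11 of 14 alternatives in all, among them flagged spots kept (-1.26), the offset (-0.97), only the arrays compared (-1.26), pooled vehicle groups (-0.96), median centring (-1.09) and the replicate block (-1.24).

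The other 5 falls at 168 h lay against vehicle rats that differed among themselves. Slc35b1, of the nucleotide sugar family, read 11.63, 11.79, 12.50 and 13.09 in the vehicle rats and 11.57, 11.15 and 11.13 at 168 h and fell by 0.97 ± 0.30. Slco1a5, an organic anion carrier, read 8.95, 8.46, 10.63 and 9.98 against 8.66, 8.54 and 7.36, and Slc7a10, a carrier of small neutral amino acids, 8.97, 8.57, 10.42 and 9.87 against 9.59, 7.45 and 6.40. In all 3, vehicle rats 3 and 4 were the highest, and leaving out either ended the call (Slc35b1 -0.89 and -0.69, Slco1a5 -0.95 and -1.16, Slc7a10 -1.32 and -1.51). The calls of Slc35b1 and Slc7a10 also ended without 168 h rat 2 (-0.90 and -1.46) or 3 (-0.89 and -0.94), and that of Slco1a5 without 168 h rat 2 (-1.50) or 3 (-0.91). Without 168 h rat 1 the change of Slc7a10 was -2.53. Slc1a5 probe 22403212 fell by 1.39, a call lost without vehicle rat 2 (-1.25) or 168 h rat 2 (-1.09). Slc32a1 fell by 0.91, a call lost without vehicle rat 1 (-0.78) or 4 (-0.84) or 168 h rat 2 (-0.49). Without vehicle rat 4, 168 h rat 2 or 168 h rat 3 the number of members called was 7, 6 and 7 in place of 12.

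The changes after the 2 chemicals were then compared, each against its own vehicle rats. None of the members differed at 4 h, and 0.00% of all tested probes were called. An unadjusted p under 0.05 was reached there by 13 of the 117 members and by 2049 of all 17810 tested probes. At 12 h 6 were more positive and 3 more negative after acetaminophen (3.74% and 3.12% of all tested probes), at 24 h 15 and 7 (7.83% and 9.16%), and at 168 h 1 and 0 (1.52% and 0.298%). The difference, acetaminophen change minus methyl parathion change, was 1.31 ± 0.25 for Slc38a2 at 12 h (limma adjusted p = 0.000987) and 2.13 ± 0.29 for Slc16a3 at 24 h (adjusted p = 2e-06). At 24 h it was 3.53 ± 0.72 for Slc2a3, 3.64 ± 0.71 for Slc5a3, 2.22 ± 0.41 for Slc12a2 and 1.12 ± 0.21 for Slc2a1, whose methyl parathion changes were 0.05, -0.07, -0.06 and -0.10. Negative differences at 24 h were -1.20 ± 0.31 for Slc25a1, -1.17 ± 0.28 for Slc5a6 and -0.88 ± 0.25 for Slc25a25. Median centring cut the called negative 24 h differences of all tested probes from 1631 to 428. With it the differences of these 3 members were -0.95, -0.88 and -0.64 and did not pass. In those 7 members the 24 h change after acetaminophen was called and the change after methyl parathion was not. Slc7a8, the LAT2 carrier, differed by 1.88 at 24 h though neither chemical's own change was called (0.70 and -1.17) and the probe was detected in none of the rats of either chemical at 24 h. That difference was lost in 11 of 16 omissions of a single rat, over which it ran from 1.57 to 2.21. At 168 h Slc7a10 differed by 2.77 ± 0.73, a difference lost in 9 of 14 omissions, over which it ran from 2.07 to 3.66.

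**Figure D5:**
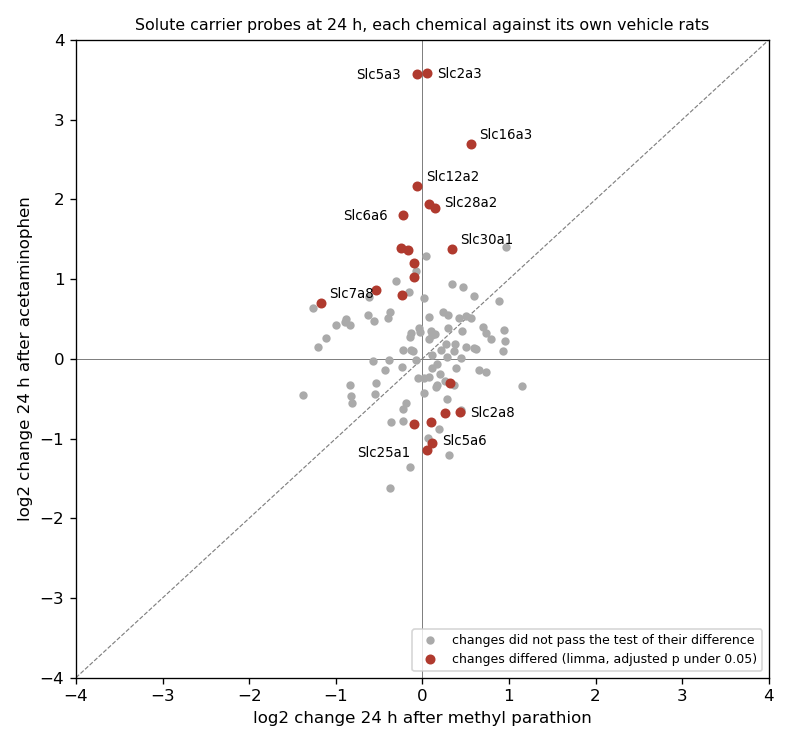
Log2 change at 24 h of each of the 117 solute carrier probes after methyl parathion (horizontal axis) and after acetaminophen (vertical axis), each against its own vehicle rats. Red points are the 22 probes whose 2 changes differed in the limma test, grey points did not pass, and the dashed line marks equal changes. Slc2a3, Slc5a3, Slc16a3, Slc12a2 and Slc6a6 sit between -0.22 and 0.56 on the horizontal axis and between 1.81 and 3.58 on the vertical axis.

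Other transport genes were counted in the same fit. Of 10 tested subunits of the vacuolar proton pump, which acidifies lysosomes and granules, 7 rose at 12 h and 6 at 24 h after acetaminophen, and none fell. Atp6v0c rose by 1.28 and 1.65 and Atp6v0a1 by 1.80 and 1.98. Of 9 aquaporins 2 rose at both times, Aqp9, which passes water and glycerol, by 2.25 and 3.20 and Aqp2 by 0.61 and 0.93. Of 14 ABC transporters none rose and 3 fell at both times, among them the sterol exporter Abcg1 by 0.88 and 0.91. Of 10 sodium-potassium and calcium pump genes none rose, 1 fell at 12 h and 3 at 24 h, with the calcium pump Atp2a3 at -0.66 and -1.07. Emb, a chaperone of the monocarboxylate carriers, rose by 1.42 at 12 h, and Bsg, which serves the same carriers, fell by 0.42 at 24 h. Among all tested probes 9.40% were higher and 14.0% lower at 12 h, and 10.2% and 14.3% at 24 h. These genes were picked by symbol, and among probes with 1 symbol the shares were 13.4% and 16.8% at 12 h and 15.1% and 16.7% at 24 h. No list was tested against these shares.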

How the data were processed

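Leukocyte RNA of 38 rats was measured on single-channel arrays. Per the file headers, the deposited array files give for each probe a linear signal intensity, a signal-to-noise score and a quality flag. The authors' deposited series table gives log2 values, which differed from the log2 of the quantile-normalised intensities by at most 0.014, with a median difference of 7.5e-10. The program and annotation build behind these values are not given in the sources used here. Control spots (322) were left out, spots with a flag of 5000 or more (0.96% of values) were set to missing, and values below the 5th percentile were raised to it (84.7 on the linear scale, log2 6.40). Gene symbols came from the platform annotation: 6104 probes had 1 symbol, 70 several and 20683 none, and only the first kind was named.

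Probes needed a score of 3 or more in at least 3 arrays and at least 2 unflagged values in every group, and 17810 were tested. One fit over the 10 groups was made with limma 3.58.1 in R 4.3.3 (lmFit and eBayes with a mean-variance trend, 28 residual and 8.31 prior degrees of freedom), with Benjamini-Hochberg adjustment over all probes tested and a threshold of 0.05. Tables were made with Python 3.11.15, and the fit was tested on simulated data. Intervals are 95%. Where a probe was undetected in every array of a group, the fold given is still that of the measured group means. The undetected signals enter it as measured, after the same floor. Such a fold does not cover the spread between rats and is uncertain near the detection limit. The number of arrays limits the precision. The labels number the rats but state no shared animal, litter or day, and p-values cover the spread between these rats only. Alternatives were median centring of the scanner signals, keeping flagged spots, an offset of 50 in place of the floor, no detection filter, a filter of 19 arrays, a fit of only the arrays compared, pooled vehicle groups, the replicate number as a block, and leaving out each rat in turn.

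The members, gene lists, tests and naming rule were chosen with earlier results of these data known. Named were, per treated group, up to 10 rises and 10 falls that passed without overlap with the vehicle rats, up to 6 differences each way between the chemicals, the 4 members with the smallest p in each substrate class, and a list of 15 genes. The 5 members closest to Slc2a3 were named by the correlation of group means.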

Additional observations from a re-analysis of the deposited data

Results flagged for a closer look

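Single rats stood apart in 12 of 239 groups of 4 examined over 30 members, by the gap between the highest or lowest rat and the next set against the group's range (Dixon's 95% critical value). Chance gives about 1 such group in 20. After acetaminophen these were rat 3 of Slc16a7 at 4 h (7.07, lowest), rat 1 of Slc20a2 at 12 h (7.65, highest), rat 3 of Slc25a4 at 4 h (15.1, highest), rat 4 of Slc25a4 at 24 h (13.81, lowest) and rat 3 of Slc35a4 at 12 h (14.51, highest). In the acetaminophen vehicle group rat 4 of Slc5a3 was lowest at 7.47. After methyl parathion they were rat 2 of Slc12a2 at 12 h (11.47, lowest), rat 2 of Slc16a7 at 4 h (8.96, highest) and rat 2 of Slc25a4 at 24 h (14.98, highest). In the methyl parathion vehicle group they were rat 2 of Slc30a1 (11.31, highest), rat 3 of Slc35e4 (10.77, lowest) and rat 3 of Slc5a3 (7.43, lowest).

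The change after acetaminophen differed from that after methyl parathion, by the limma test of the difference itself, in the members named here. At 12 h the difference was 2.59 for Slc5a3, 1.98 for Slc6a6, 1.63 for Slc12a2, 1.52 for Slc28a2, 1.31 for Slc38a2, 1.16 for Slc16a3, -0.99 for Slc1a5 probe 21849990, -0.89 for Slc25a4 and -0.78 for Slc25a25. At 24 h it was 3.64 for Slc5a3, 3.53 for Slc2a3, 2.22 for Slc12a2, 2.13 for Slc16a3, 2.03 for Slc6a6 and 1.88 for Slc7a8, and -1.20 for Slc25a1, -1.17 for Slc5a6, -1.10 for Slc2a8, -0.95 for Slc27a1, -0.88 for Slc25a25 and -0.72 for Slc25a5. At 168 h it was 2.77 for Slc7a10. Among these, leaving out a single rat ended the call in 12 of 16 omissions for Slc25a25 at 12 h, 11 for Slc7a8, 5 for Slc25a5, 5 for Slc27a1, 3 for Slc5a3 at 12 h, 2 for Slc6a6 at 12 h and 1 for Slc25a4, and in 9 of 14 for Slc7a10. Among all 17810 tested probes, median centring cut the negative differences called from 555 to 10 at 12 h and from 1631 to 428 at 24 h. With median centring every negative difference named here failed to pass. They were then -0.83 for Slc1a5 probe 21849990, -0.71 for Slc25a4 and -0.60 for Slc25a25 at 12 h, and at 24 h -0.95 for Slc25a1, -0.88 for Slc5a6, -0.82 for Slc2a8, -0.68 for Slc27a1, -0.64 for Slc25a25 and -0.25 for Slc25a5. Slc7a8 (1.87) and Slc7a10 (2.63) did not pass either.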

How the results depend on the processing

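Of the 112 called changes of members, none reversed under any alternative run, and of 1987 repeats 1708 kept the call and 279 lost it. Median centring ended 43 of the 112 calls, a fit of only the arrays compared 20, pooled vehicle groups 10 of 80, no detection filter 9, the replicate block 4, and keeping flagged spots and the offset 1 each, while the filter of 19 arrays ended none of 101. Median centring gave 1 member called in place of 5 at 4 h after acetaminophen, 17 in place of 26 at 12 h (12 higher and 5 lower) and 2 in place of 4 at 168 h (both lower). It gave 0 in place of 3 at 12 h and 0 in place of 1 at 24 h after methyl parathion, and 14 in place of 22 (all positive) and 0 in place of 1 for the difference between the chemicals at 24 and 168 h. At 168 h after methyl parathion it gave 1 higher and 8 lower in place of 5 and 7, and for the difference at 12 h 6 and 0 in place of 6 and 3. It moved the median change of all probes to -0.22 at 168 h after acetaminophen, -0.14 and -0.17 at 12 and 24 h after methyl parathion, and -0.11 and -0.22 for the difference at 4 and 168 h. Fitting only the arrays compared gave 0 at 4 h after acetaminophen and 0 at 12 and 24 h after methyl parathion, with fewer arrays behind each variance. Pooled vehicle groups gave 8 at 168 h after acetaminophen, and 8 and 2 at 12 and 24 h after methyl parathion. The difference at 168 h had 0 without the detection filter and 0 with the replicate block. The causes were not tested except where named.

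Leaving out single rats gave 1 to 9 members called at 4 h, 25 to 27 at 12 h, 23 to 32 at 24 h and 1 to 4 at 168 h after acetaminophen. After methyl parathion it gave 0 at 4 h, 1 (without 12 h rat 4) to 5 (without 12 h rat 2) at 12 h, 0 to 1 at 24 h (0 without vehicle rat 1, 2 or 3 or 24 h rat 3 or 4) and 6 to 14 at 168 h. The differences gave 0 to 2 at 4 h (2 without 4 h acetaminophen rat 1), 6 to 11 at 12 h, 17 to 22 at 24 h and 0 to 3 at 168 h (3 without acetaminophen vehicle rat 2 or 168 h methyl parathion rat 1), and the vehicle groups 0. Each treated rat's deviations from its group means were correlated with those of the same-numbered vehicle rat of its chemical (r from -0.28 to 0.14 per pair). Other pairs of groups were not examined, so whether rats of the same number share a day or litter was not tested. With the replicate block the counts were 5, 26, 30 and 6 after acetaminophen and 3, 1 and 12 at 12, 24 and 168 h after methyl parathion, and 8 and 21 for the differences at 12 and 24 h. Members with signals near the detection limit have the least certain folds.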
